A study of Mus musculus with 60 samples.

Results

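Dentate granule cell genes are described here through 8 rows of the gene count table: Prox1, C1ql2, Dsp, Calb1, Dock10, Stxbp6, Plk5 and Tdo2, of 35976 gene symbols in all. They were chosen by name as markers of mature granule cells of the dentate gyrus, by a rule that uses no measured value but was set with earlier results of these data known. RNA of whole hippocampus was sequenced in 60 libraries after depletion of ribosomal RNA. The libraries come from wild-type mice (WT) and from AppNL-G-F mice (NLGF), in which the mouse App gene itself carries a humanised amyloid-beta sequence with familial Alzheimer's disease mutations and stays under its own promoter. Each genotype was sampled at 3, 8 and 24 weeks of age, with 5 females and 5 males at each age, so that genotype and week give 6 sets of 10 libraries. The study asked how the genotypes differ at each age, with sex as a covariate. The labels do not say that libraries of a group came from separate animals, and p-values then measure the spread between these libraries, which may be technical.

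The dentate gyrus is the entry station of the hippocampal circuit: its granule cells receive the perforant path from entorhinal cortex and send mossy fibres to CA3 pyramidal cells. It is one of the few regions of the adult rodent brain where neurons are still added, and much of the granule cell layer is laid down in the first weeks after birth. Granule cells hold Prox1 from their precursor stage onward and gain calbindin as they mature. Loss of calbindin from granule cells has been described in mouse models of Alzheimer's disease.

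Library totals ranged from 17786578 to 73423252 counts, with a median of 26097235. Of the 10 NLGF week 3 libraries, 7 (females 1, 4 and 5, males 2 to 5) had 54026870 to 73423252 counts and are called the deeper libraries below, and the other 53 had at most 35162084. The deeper libraries also held 1740 to 5730 CPM of the small RNA gene Bc1 (CPM, counts scaled to a common library total), against 2.27 to 59.5 CPM in the others. These 7 libraries are all of 1 genotype and 1 age, so week 3 results are given with and without them. The library labelled NLGF W3 male 2 had 248.2 CPM of Xist and no counts of Ddx3y, which goes against its sex label. It was also closer to NLGF W3 female 1 than any other 2 of the 60 libraries were to each other, with a root mean square difference of log2 CPM over genes of 0.243, against 0.379 for the next of 1770 pairs. The chi-square per gene between them was 10.4, against 29 for that next pair, NLGF W3 female 5 and male 4, also deeper libraries. A value of 10.4 is more than sampling noise, but it cannot show that the 2 libraries come from separate animals. Both were kept. Whether they come from 1 animal was not tested, and results at week 3 are given without the library labelled male 2 where it moves them. For the library labelled NLGF W8 female 1, the labels give week 8 in the title but 3 weeks as the age. App, the edited gene, was present in every library at 1425 to 2412 CPM. It did not pass the threshold in edgeR's test at any week (log2 fold change NLGF over WT -0.09, -0.21 and -0.10 at weeks 3, 8 and 24, adjusted p = 0.286, 0.633 and 0.375). Each estimate was below 0, with an unadjusted p of 0.0797, 0.00229 and 0.0146 in that test. As App was not called, its counts do not check the genotype labels.

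All 8 genes were detected in every library, and each passed the filter on low counts in every comparison. In mm10 the gene of Prox1 lies at chr1:190118035-190170714 on the minus strand, C1ql2 at chr1:120340582-120343174 on the plus strand, Dsp at chr13:38151294-38198577 on the plus strand and Plk5 at chr10:80356459-80365489 on the plus strand. Prox1 overlaps the opposite-strand genes Prox1os and Gm28172. The strand setting of the counting is not given in the sources used here, so reads of Prox1 and of these genes cannot be told apart. The 250 bases before the RefSeq start are shown for these 4 members. Their levels moved together between libraries as described further on, as did those of Dock10, Stxbp6 and Tdo2, which are not shown. Capitals mark CANNTG, the E-box that neuronal basic helix-loop-helix factors can bind.
Prox1 (GRCm38.p6 chr1:190170828-190171077, minus strand): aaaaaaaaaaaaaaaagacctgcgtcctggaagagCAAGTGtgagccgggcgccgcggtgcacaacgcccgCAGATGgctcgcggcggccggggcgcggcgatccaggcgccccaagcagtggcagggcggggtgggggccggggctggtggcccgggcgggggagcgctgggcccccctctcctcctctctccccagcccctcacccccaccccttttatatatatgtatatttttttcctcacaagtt
C1ql2 (GRCm38.p6 chr1:120340332-120340581, plus strand): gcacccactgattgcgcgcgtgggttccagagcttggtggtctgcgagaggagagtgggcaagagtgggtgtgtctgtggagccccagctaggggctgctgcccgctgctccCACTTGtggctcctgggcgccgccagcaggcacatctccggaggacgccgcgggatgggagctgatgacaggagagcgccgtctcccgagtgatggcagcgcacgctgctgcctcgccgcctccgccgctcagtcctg
Dsp (GRCm38.p6 chr13:38151044-38151293, plus strand): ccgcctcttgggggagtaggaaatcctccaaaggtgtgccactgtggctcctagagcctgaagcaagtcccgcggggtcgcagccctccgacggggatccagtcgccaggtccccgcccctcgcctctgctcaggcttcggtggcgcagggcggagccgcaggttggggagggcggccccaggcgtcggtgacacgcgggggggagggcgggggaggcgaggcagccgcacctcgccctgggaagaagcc
Plk5 (GRCm38.p6 chr10:80356209-80356458, plus strand): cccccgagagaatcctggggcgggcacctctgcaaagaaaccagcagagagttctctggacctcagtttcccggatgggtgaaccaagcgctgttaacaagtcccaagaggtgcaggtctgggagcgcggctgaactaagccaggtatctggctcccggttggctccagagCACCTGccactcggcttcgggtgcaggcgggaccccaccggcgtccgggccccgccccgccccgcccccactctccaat

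The windows, from RefSeq, held 2, 1, 0 and 1 matches to CANNTG, which reads the same on both strands, and 66.2% of all 32851 promoter windows of that length held at least 1. GGGCGG, searched on both strands, was found 2, 0, 4 and 4 times, against 32.7% of windows with at least 1. The cyclic AMP response element TGACGTCA and its shorter form TGACG, both strands, were in none of the 9 windows of the 7 members with a RefSeq entry, and in 1.55% and 17.8% of all windows. GC content was 64.8%, 68.8%, 72.4% and 65.6% in the 4 printed windows, above the median of 52.4% over all windows. Of the member windows not printed, that of Tdo2 (46.4%) and a window of Dock10 (43.2%) were below this median. That of Stxbp6 (65.2%), another of Dock10 (70.4%) and another of Prox1 (56.0%) were above it.

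Per kilobase of exon, C1ql2 was the most abundant member and Tdo2 the least. C1ql2, a secreted organiser of mossy fibre synapses, reached a mean of 32.3 CPM per kb over the 60 libraries, with a range from 10.5 to 67.9. Prox1 followed at 18.3 ± 5.26 (mean ± SD, n = 60), Calb1 at 15.9 ± 3.12 and Stxbp6 at 14.7 ± 3.24 CPM per kb. These 3 neighbours were not separated beyond their spread: Prox1 was above Calb1 in 38 of 60 libraries, and Calb1 above Stxbp6 in 40. Below them, Dsp had 9.47 ± 4.34, Dock10 6.37 ± 1.31 and Plk5 4.83 ± 1.79 CPM per kb, with Stxbp6 above Dsp in 51, Dsp above Dock10 in 47 and Dock10 above Plk5 in 49 libraries. Tdo2 stood apart at 0.963 ± 0.327 CPM per kb and was below Plk5 in all 60 libraries, while C1ql2 was above Prox1 in 58.

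The levels that follow are CPM per gene, not scaled by length, as lowest, median and highest of 10 libraries. Prox1 is the homeobox transcription factor that sets and keeps granule cell identity, and it is also found in some interneurons and in the oligodendrocyte lineage. At week 3, Prox1 had 128, 159.9 and 217 CPM in WT and 152, 199 and 232 CPM in NLGF. At week 8 it had 64.5, 143 and 189 CPM in WT and 107, 149 and 255 CPM in NLGF. At week 24 it had 58.4, 119.8 and 179 CPM in WT and 99.9, 157 and 214 CPM in NLGF. The NLGF median was above the WT median at each age, and the groups overlapped each time, with 3, 2 and 3 of 10 NLGF libraries above all WT libraries at weeks 3, 8 and 24.

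C1ql2 spread more widely around lower levels. At week 3 it had 31.2, 49.7 and 99.7 CPM in WT and 37.9, 62.7 and 100.5 CPM in NLGF. At week 8 it had 27.6, 54.4 and 136 CPM in WT and 47.2, 67.3 and 123 CPM in NLGF. At week 24 it had 21.0, 62.8 and 109.9 CPM in WT and 51.6, 77.1 and 126 CPM in NLGF. At week 24, 4 WT libraries were below every NLGF library and 1 NLGF library was above every WT library.

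Dsp encodes desmoplakin, the plaque protein that ties desmosomes to intermediate filaments, and within the hippocampus it is used as a granule cell marker. At week 3 it had 54.8, 96.8 and 189 CPM in WT and 52.3, 95.8 and 166 CPM in NLGF. At week 8 it had 21.7, 87.3 and 233 CPM in WT and 43.0, 86.3 and 154 CPM in NLGF. At week 24 it had 21.9, 72.5 and 135 CPM in WT and 47.5, 93.5 and 188 CPM in NLGF. Dsp was the most variable member: the WT week 8 libraries alone spanned a 10.7-fold range. At weeks 3 and 8 the medians of the genotypes were close, and at week 24 the NLGF median was the higher one, with overlap.

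Calb1 encodes calbindin, a calcium buffer that mature granule cells share with CA1 pyramidal cells and some interneurons. At week 3 it had 51.3, 73.5 and 85.0 CPM in WT and 54.0, 77.2 and 100.3 CPM in NLGF. At week 8 it had 60.7, 74.9 and 121 CPM in WT and 67.0, 75.5 and 123 CPM in NLGF. At week 24 it had 51.6, 78.5 and 111 CPM in WT and 59.7, 79.2 and 104 CPM in NLGF. Its 6 medians, from 73.5 to 79.2 CPM, were the closest together of the 8 genes relative to their level.

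Stxbp6 encodes amisyn, which binds SNARE proteins and dampens vesicle fusion. At week 3 it had 46.9, 62.3 and 80.7 CPM in WT and 60.3, 73.0 and 89.4 CPM in NLGF. At week 8 it had 53.3, 79.2 and 88.5 CPM in WT and 55.2, 81.6 and 124 CPM in NLGF. At week 24 it had 57.8, 76.3 and 108 CPM in WT and 66.1, 97.0 and 121 CPM in NLGF. The lowest median was in the youngest mice of each genotype, and the highest in NLGF at week 24.

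Plk5 is a polo-like kinase family member that is expressed in neurons rather than dividing cells. At week 3 it had 4.55, 8.15 and 13.4 CPM in WT and 5.52, 10.1 and 13.7 CPM in NLGF. At week 8 it had 7.62, 12.2 and 24.1 CPM in WT and 9.99, 14.6 and 20.5 CPM in NLGF. At week 24 it had 7.58, 12.8 and 23.9 CPM in WT and 11.3, 16.3 and 26.3 CPM in NLGF. Both genotypes were lowest at week 3, with overlap between the ages.

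Dock10, a guanine nucleotide exchange factor for Rac and Cdc42, was among the least variable members: its set medians ran from 100.9 to 131 CPM, and its 60 libraries from 61.6 to 177 CPM. Tdo2 encodes tryptophan dioxygenase, the entry enzyme of the kynurenine pathway, and is known best from liver. Its set medians ran from 3.28 to 4.09 CPM, and its libraries from 1.05 to 6.72 CPM. For all 8 genes the plot of levels by set shows the genotypes overlapping at every age. Over 14504 genes with at least 1 CPM on average, the genotypes did not overlap in 0.0483%, 0.0% and 0.317% at weeks 3, 8 and 24.

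**Figure D1:**
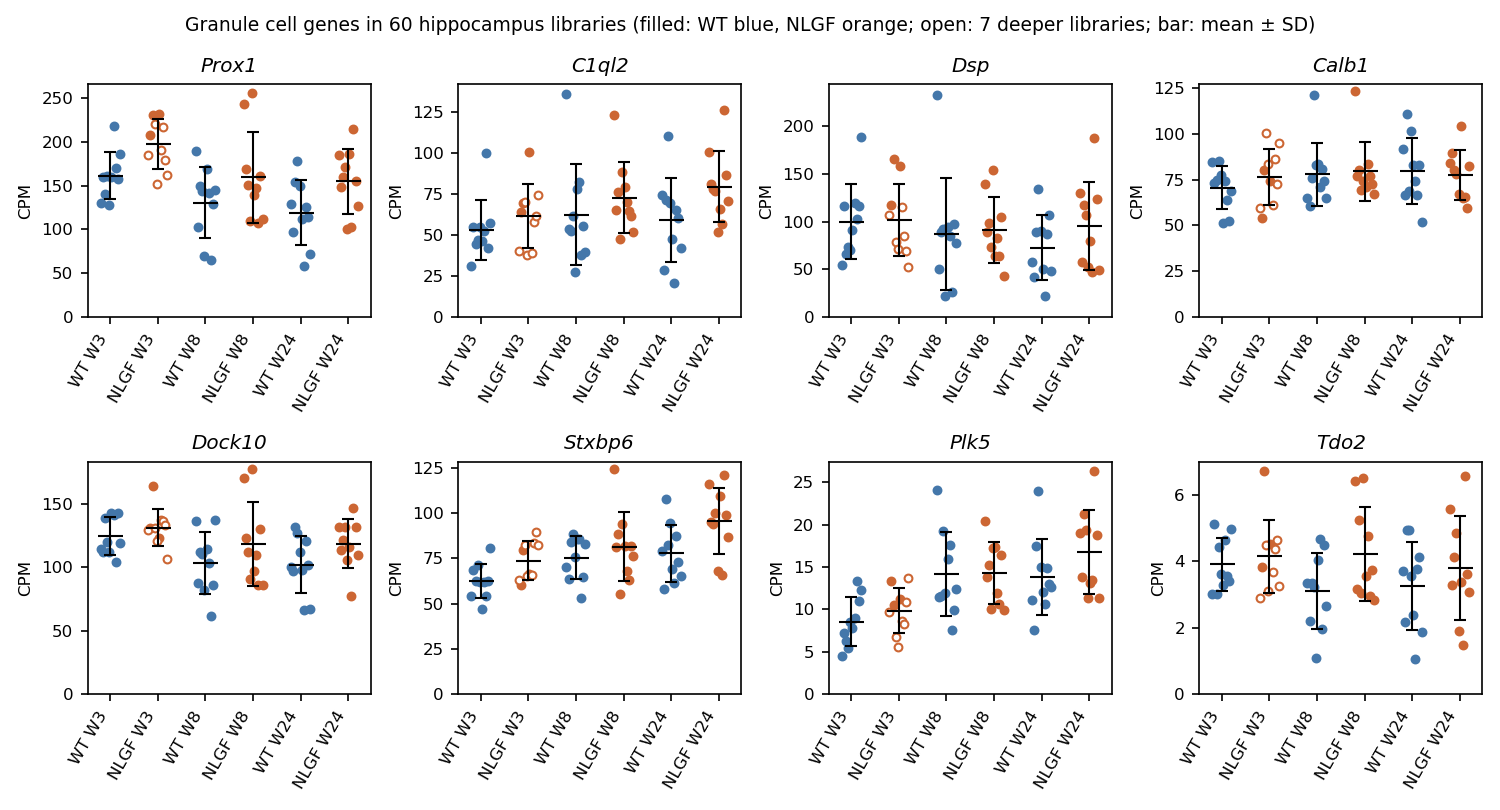
Level of each gene in CPM (vertical axis, from 0) in the 6 sets of genotype and week; each point is 1 library, open points are the 7 deeper NLGF week 3 libraries, and bars give mean ± SD of 10 libraries. Prox1 medians are higher in NLGF at each week with overlap, Calb1 medians stay between 73.5 and 79.2 CPM, and Plk5 is lowest at week 3.

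In edgeR's test none of the 8 genes passed the threshold between the genotypes at any age, although most estimates were above 0 in NLGF. DESeq2 called 1 of them, Prox1, at week 3. At week 3 all 8 fold changes were positive, from 0.06 for Dsp to 0.30 ± 0.09 (log2, SE, 10 against 10 libraries) for Prox1. The median over the 8 was 0.18, beside 0.013 over all genes tested. edgeR's quasi-likelihood test with Benjamini-Hochberg adjustment called 0 of 8, against 628 of 16605 genes tested (3.78%). At an unadjusted p under 0.05 there were 2 of 8, Prox1 (adjusted p = 0.0545) and Stxbp6 (0.24 ± 0.09, adjusted p = 0.136), beside 3649 of all genes (22.0%). DESeq2 called Prox1 with log2 fold change 0.31 and adjusted p = 0.0178, among 1486 genes. The number of all genes called by edgeR was 165 with a replicate block, and ran from 102 without NLGF W3 female 5 to 1923 without NLGF W3 male 1. Without the library labelled NLGF W3 male 2 it was 257, with 0 of 8 members, and Prox1 stood at 0.32 (adjusted p = 0.0704), C1ql2 at 0.29 and Plk5 at 0.29. In males alone, which by label include NLGF W3 male 2, Dsp stood at -0.36, Dock10 at -0.017 and Plk5 at -0.0096. In females alone Calb1 stood at -0.070, so the sign of these 4 differed between the sexes' own fits. As tissue was measured in bulk, more granule cells and more RNA per granule cell cannot be told apart.

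The size of the week 3 difference rested on which NLGF libraries were used. Without the 7 deeper libraries, which leaves 3 NLGF against 10 WT, Prox1 had log2 fold change 0.52 ± 0.10 (edgeR, adjusted p = 0.134), a 1.44-fold difference. The 3 NLGF libraries held 207, 230.1 and 232 CPM of Prox1, and the deeper ones 152 to 220.3 CPM. Dsp moved most, from 0.06 to 0.71 ± 0.23, since its 3 values of 117 to 166 CPM all lay above the 52.3 to 115 CPM of the deeper libraries. C1ql2 moved from 0.22 to 0.61, Plk5 from 0.24 to 0.62, Tdo2 from 0.09 to 0.37 and Dock10 from 0.08 to 0.17. Stxbp6 went from 0.24 to 0.13 and Calb1 from 0.14 to -0.04. edgeR called 0 of 8 and 0 of 17187 genes (0.0%) in that comparison, with 4 of 8 and 1965 genes (11.4%) at an unadjusted p under 0.05. The part of depth in these differences was not tested.

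At week 8 the 8 fold changes were again positive but small against their errors. Tdo2 had the largest at 0.44 ± 0.22 (adjusted p = 0.635), followed by Prox1 at 0.27 ± 0.19 and C1ql2 at 0.21 ± 0.23. Dock10 stood at 0.18, Stxbp6 at 0.10, Dsp at 0.06 and Calb1 and Plk5 at 0.02. edgeR called 0 of 8 and 0 of 16494 genes tested (0.0%), with 0 of 8 and 1292 of all genes (7.83%) at an unadjusted p under 0.05, and DESeq2 called 0 of 8. Without the library labelled NLGF W8 female 1, Prox1 stood at 0.21, C1ql2 at 0.12, Tdo2 at 0.37 and Dock10 at 0.13, while Calb1 came to -0.05 and Plk5 to -0.04.

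At week 24 the estimates were largest for C1ql2 and Prox1, and 7 of 8 were positive. C1ql2 had 0.46 ± 0.24 (adjusted p = 0.587), Prox1 0.41 ± 0.18 (adjusted p = 0.500), a 1.33-fold difference, and Dsp 0.40 ± 0.32. Stxbp6 had 0.30 ± 0.12 (adjusted p = 0.450) with 8 of 10 NLGF libraries above the WT median. Plk5 at 0.28, Tdo2 at 0.24 and Dock10 at 0.23 came next, and Calb1 was at -0.03 ± 0.12 with a 95% interval from -0.26 to 0.20. The median over the 8 was 0.29, beside -0.00063 over all genes. edgeR called 0 of 8, against 145 of 16508 genes tested (0.878%), with 2 of 8 and 1484 of all genes (8.99%) at an unadjusted p under 0.05, and DESeq2 called 0 of 8.

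The week 24 estimates were larger in the fit of males than in that of females, and smaller without 1 library. In males alone Prox1 had 0.71 ± 0.26, C1ql2 0.79 ± 0.31 and Stxbp6 0.44 ± 0.15, and in females alone 0.11 ± 0.18, 0.14 ± 0.30 and 0.17 ± 0.17. The difference between the sexes was not tested. WT W24 male 2 was the library with the lowest granule cell genes of all 60, with 0 of 8 above their set mean. Without it, Prox1 stood at 0.33 (adjusted p = 0.715), C1ql2 at 0.35 and Dsp at 0.29. The plot of genotype differences shows these estimates with their errors.

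**Figure D2:**
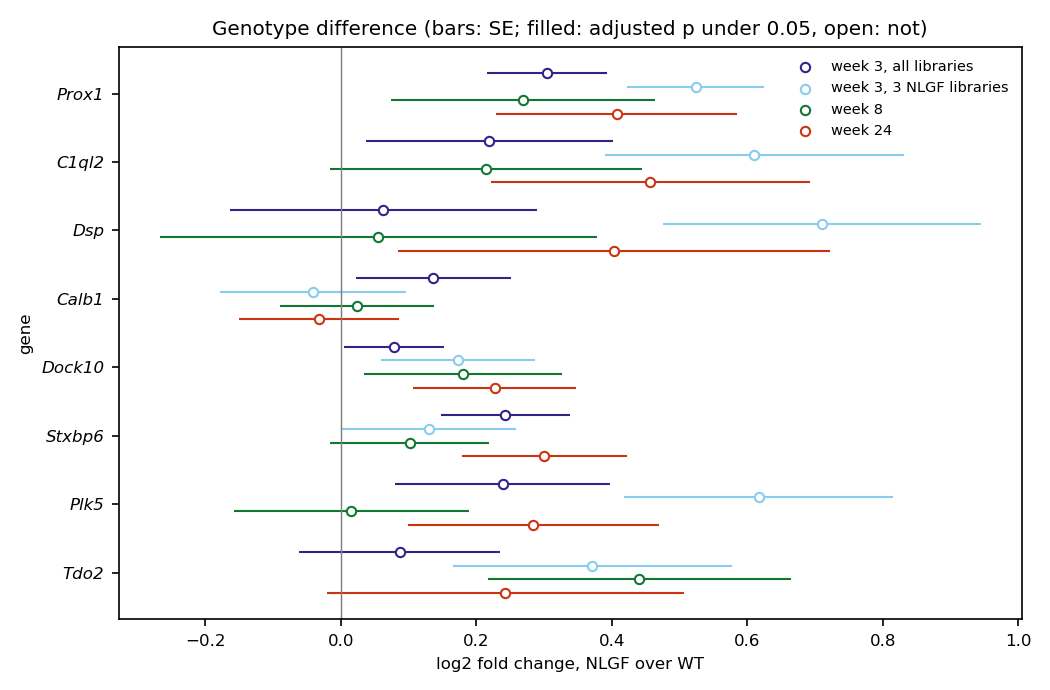
log2 fold change of NLGF over WT (horizontal axis) for each gene (vertical axis) at week 3 with all libraries, at week 3 with the 3 NLGF libraries that are not deeper, at week 8 and at week 24; bars are SE, and open points have an adjusted p of at least 0.05. All points are open, and the estimates of C1ql2, Dsp and Plk5 at week 3 move from 0.22, 0.06 and 0.24 to 0.61, 0.71 and 0.62 without the deeper libraries.

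The genotype effect of the granule cell genes did not differ detectably between ages. In 1 model over the 60 libraries, 0 of 8 were called for week 8 minus week 3, where 41 of 17752 genes were (0.231%), for week 24 minus week 8 (59 genes, 0.332%) and for week 24 minus week 3 (240 genes, 1.35%). At an unadjusted p under 0.05 there were 0 of 8 each time, beside 7.6%, 3.99% and 14.1% of all genes, and DESeq2 called 0 of 8. For Prox1 the effect at week 24 minus week 3 was 0.11 with a 95% interval from -0.34 to 0.55, and for Dsp 0.34 with an interval from -0.50 to 1.18. Without the 7 deeper libraries 5 of these week 24 minus week 3 estimates changed sign, with Prox1 at -0.086, C1ql2 at -0.18, Dsp at -0.22, Plk5 at -0.20 and Tdo2 at -0.082.

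Other genes of the granule cell were read beside these. Among 14 further granule cell genes at week 3, 13 had positive fold changes, with a median of 0.15. Of these 14, 6 had an unadjusted p under 0.05 (22.0% of all genes did). Maml2, a Notch coactivator, was called higher (0.51 ± 0.08, adjusted p = 0.00653), 1 of the 14, where edgeR called 3.78% of all genes. At week 24, 11 of the 14 were positive with a median of 0.23, 7 had an unadjusted p under 0.05 (8.99% of all genes did) and 0 were called. As a list these 14 genes varied with Prox1 between libraries (r = 0.880, described further on). The counts of 6 and 7 are therefore not counts of independent genes. Of 9 genes of immature granule cells at week 3, Neurod1, a transcription factor of differentiating granule cells, was called higher (0.42, adjusted p = 0.0221). Stmn1, a microtubule regulator of young neurons, was called lower (-0.49, adjusted p = 0.0327). Without the 7 deeper libraries edgeR called 0 of 17187 genes at week 3, so Maml2, Neurod1 and Stmn1 were not called there. The week 3 values of all lists in this paragraph include the deeper libraries. Of 14 CA field pyramidal cell genes, 0 were called at any week, and their medians of 0.05, 0.05 and 0.02 at weeks 3, 8 and 24 lay below those of the granule cell genes. Choroid plexus genes, whose summed level ran from 31.4 to 10880 CPM over the libraries, had median fold changes of 1.05, -0.15 and 0.23 with 0 of 9 called. At week 3 the median of their summed level was lower in NLGF, at 868 CPM against 1529 CPM in WT. NLGF W3 female 1 and the library labelled male 2 held 10710 and 10340 CPM, and each other NLGF week 3 library at most 2530 CPM. The part of choroid plexus genes in the granule cell values was not tested.

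In the authors' deposited table of called genes, which lists 2628 genes at week 3, 4 at week 8 and 156 at week 24, none of the 8 appears. Of the 14 further granule cell genes, the authors' deposited table lists Maml2 (log2 fold change 0.31, adjusted p = 0.00183) and Glis3 (0.23, adjusted p = 0.0182) at week 3.

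With age, Plk5 and Stxbp6 rose in both genotypes in edgeR's test, while the other 6 did not pass the threshold there. DESeq2 also called Prox1 lower in WT at week 24. In WT, Plk5 rose between weeks 3 and 8 by 0.74 ± 0.21 (log2, SE, adjusted p = 0.0253). That call was lost with no filter (adjusted p = 0.0603), with a replicate block (0.0666) and without any 1 of WT W3 female 1, 3 or 4, WT W8 female 4 or WT W8 male 2 (at most 0.0583). Plk5 stood at week 24 at 0.70 ± 0.21 over week 3 (adjusted p = 0.0150), a 1.63-fold increase. In NLGF it rose by 0.54 ± 0.17 between weeks 3 and 8 (adjusted p = 0.0444), a 1.45-fold increase, a call that was lost with no filter (0.0892), with a replicate block (0.0599) and in 11 of 30 fits that left out 1 library (at most 0.0917). The 11 were NLGF W3 females 1, 4 and 5 and males 2 and 3, and NLGF W8 females 1, 2, 3 and 5 and males 1 and 4. Plk5 in NLGF rose by 0.77 ± 0.17 between weeks 3 and 24 (adjusted p = 0.00136). Stxbp6 rose between weeks 3 and 24 by 0.31 ± 0.11 in WT (adjusted p = 0.0313) and by 0.37 ± 0.12 in NLGF (adjusted p = 0.0234). The WT call of Stxbp6 was lost without any 1 of WT W24 female 3 or 5, WT W24 male 3, WT W3 female 1 or 3 or WT W3 male 1 or 3 (adjusted p at most 0.0815), and the NLGF call without NLGF W24 male 3 (0.0561).

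These calls were set against those of all genes. Between weeks 3 and 8, 1 of 8 was called in WT, higher, where 1202 of 16844 genes were called (7.14%, and 2.63% higher). In NLGF it was also 1 of 8, higher, where 1811 of 17391 were called (10.4%, and 4.9% higher). Between weeks 3 and 24, 2 of 8 were called higher in each genotype, where 3693 genes in WT (21.9%, and 10.6% higher) and 4461 in NLGF (25.7%, and 12.3% higher) were called. Over 8 genes, counts of 1 or 2 are not read as particular to the granule cell genes. Between weeks 8 and 24, edgeR and DESeq2 each called 0 of 8 in WT and in NLGF, where edgeR called 47 (0.279%) and 331 genes (1.9%), and 0 of 8 had an unadjusted p under 0.05 in either genotype, beside 11.5% and 12.2% of all genes.

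Prox1 had negative estimates with age in both genotypes. Between weeks 3 and 24 it stood at -0.45 ± 0.18 in WT (adjusted p = 0.0760 with edgeR, 0.0447 with DESeq2) and at -0.35 ± 0.15 in NLGF (adjusted p = 0.0859 with edgeR). Dock10 stood at -0.30 ± 0.13 in WT (adjusted p = 0.0902) and at -0.15 ± 0.11 in NLGF. C1ql2 had positive estimates, 0.13 ± 0.27 in WT and 0.37 ± 0.18 in NLGF, and Calb1 0.18 ± 0.11 and 0.01 ± 0.12, none of them past the threshold. Without the deeper libraries the NLGF estimates were 0.025 for C1ql2, 0.17 for Calb1, -0.50 for Prox1 and -0.60 for Dsp, which had -0.085 with them.

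The NLGF calls depended on the deeper week 3 libraries. Without them, leaving 3 NLGF libraries at week 3, edgeR called 0 of 8 between weeks 3 and 8, where it called 2693 of 18431 genes (14.6%), and 0 of 8 between weeks 3 and 24, where it called 5167 genes (28.0%). At an unadjusted p under 0.05 there were 0 of 8 and 3 of 8, beside 29.0% and 38.7% of all genes. Plk5 then stood at 0.30 ± 0.25 (adjusted p = 0.451) and 0.53 ± 0.25 (adjusted p = 0.118), and Stxbp6 at 0.49 ± 0.20 between weeks 3 and 24 (adjusted p = 0.0671). Without the library labelled NLGF W8 female 1, Plk5 stood at 0.47 ± 0.17 between weeks 3 and 8 (adjusted p = 0.0917). Without the library labelled NLGF W3 male 2, Plk5 stood at 0.52 ± 0.18 between weeks 3 and 8 (adjusted p = 0.0760), and between weeks 3 and 24 Plk5 (0.75, adjusted p = 0.00296) and Stxbp6 (0.35, adjusted p = 0.0408) were still called. The call of Plk5 between weeks 3 and 24 was kept in all 30 fits that left out 1 library, in WT and in NLGF alike.

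**Figure D3:**
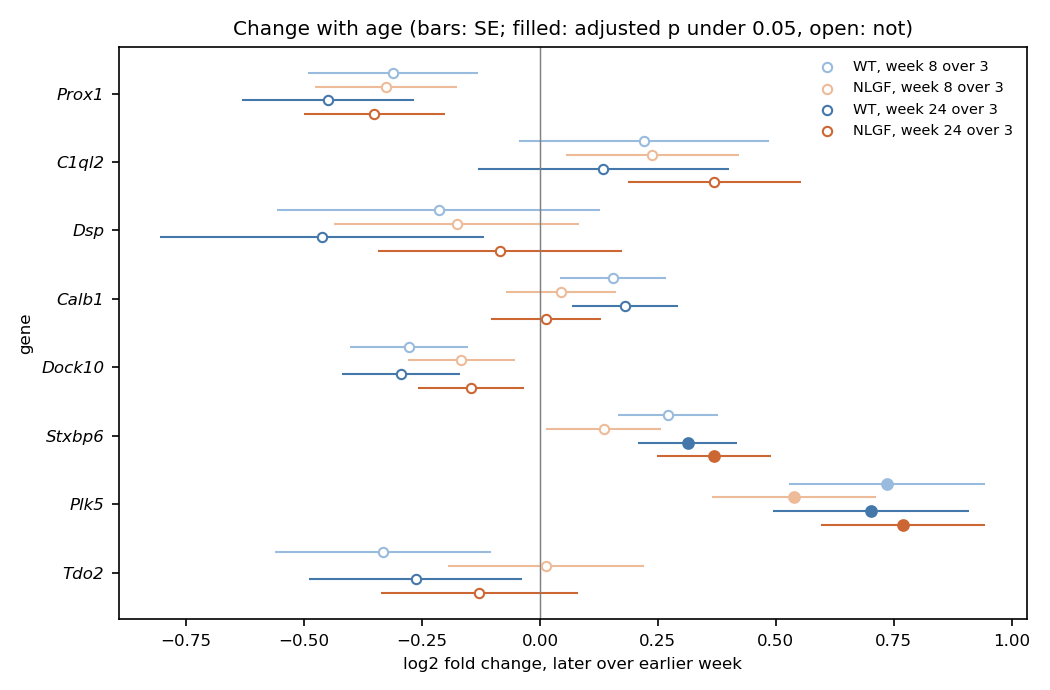
log2 fold change of week 8 or week 24 over week 3 (horizontal axis) for each gene (vertical axis), within WT and within NLGF; bars are SE, filled points have an adjusted p under 0.05 and open points do not. Plk5 is filled in all 4 comparisons and Stxbp6 in both comparisons of week 24, while Prox1 lies left of 0 in all 4.

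Immature granule cell genes moved with age beside these. Between weeks 3 and 24, 7 of 9 fell in WT and 8 of 9 in NLGF, with medians of -0.86 and -0.91, where 11.3% and 13.3% of all genes fell. Igfbpl1, a gene of newborn neurons, fell by 3.21 in WT and by 3.16 in NLGF on the log2 scale, and Dcx, the microtubule protein doublecortin of young neurons, by 0.86 and 1.13. Of the 14 further granule cell genes, 1 was called higher and 1 lower in each genotype, with medians of 0.09 in WT and 0.07 in NLGF. Of all genes, 10.6% in WT and 12.3% in NLGF were called higher, and 11.3% and 13.3% lower. Among the 14, Trpc6, a cation channel, had the highest estimate (0.75 in WT, 0.70 in NLGF). Npnt, an extracellular matrix protein, had the lowest (-0.72 and -0.56). The NLGF values in this paragraph include the deeper libraries. Oligodendrocyte genes fell with age too, 8 of 8 in WT and 7 of 8 in NLGF against the same shares of all genes, with medians of -1.58 and -1.27; their part in the values of the granule cell genes was not tested.

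Between the sexes, 0 of 8 were called by edgeR and by DESeq2 over the 6 sets, where edgeR called 16 of 17752 genes (0.0901%). The largest estimate was that of Calb1, -0.17 ± 0.07 male over female (edgeR, adjusted p = 0.966), with medians of 79.1 CPM in 30 females and 72.4 CPM in 30 males, and it was the 1 gene of 8 with an unadjusted p under 0.05, beside 4.47% of all genes.

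Between libraries of the same genotype and age, 6 of the genes varied together with Prox1, and Calb1 followed it least. Each value was taken as log2 CPM minus the mean of its set of 10, so genotype and age are removed. Prox1 then correlated with Dock10 (Pearson r = 0.864, Spearman rho = 0.796), Dsp (0.861, 0.841), Tdo2 (0.843, 0.821), C1ql2 (0.756, 0.717), Stxbp6 (0.680, 0.684) and Plk5 (0.624, 0.610) over 60 libraries. Each of these had a permutation p of 1e-05, the smallest that 100000 permutations within sets can give, in both measures, also after adjustment over the 7 pairs, and each r was positive in 6 of 6 sets. Single sets of 10 went as low as 0.0723 for Stxbp6, 0.182 for Plk5 and 0.257 for Dock10, and not below 0.406 for C1ql2, 0.657 for Tdo2 and 0.727 for Dsp. Calb1 did not follow: its r with Prox1 was 0.233 and its rho 0.199 (permutation p = 0.0937 and 0.134, adjusted p = 0.0937 and 0.134), positive in 3 of 6 sets. The test was run for these 7 pairs and for 10 lists of other genes, not for all genes. No share of all genes stands beside the 6, so they are not read as particular to the granule cell genes.

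The pattern was also read without some of the libraries. Without the 2 libraries farthest from the median, WT W24 male 2 and WT W8 male 3, r of the 6 genes with Prox1 ran from 0.597 for Plk5 to 0.830 for Dock10, and that of Calb1 was 0.264. Both of these libraries were low in Prox1, the set means still held them, and the highest libraries were kept. Without the 7 deeper libraries the 6 ran from 0.669 to 0.876, and Calb1 had 0.272. Over all pairs of members, the 21 pairs without Calb1 had r from 0.477 to 0.864 with a median of 0.687, and the 7 pairs with Calb1 from -0.06 to 0.520. Calb1 was closest to Stxbp6, at 0.520. All values of a library share its total and scaling.

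The spread itself differed between genes. The SD of the deviations was 0.70 for Dsp, 0.53 for Tdo2, 0.52 for C1ql2, 0.44 for Plk5 and 0.40 for Prox1, on the log2 scale, and 0.29 for Dock10, 0.28 for Calb1 and 0.27 for Stxbp6. Dsp therefore swung furthest when the others swung. The lowest library, WT W24 male 2, lay 0.82 below its set mean on average over the 8 genes. The highest, the library labelled NLGF W8 female 1, lay 0.66 above with 8 of 8 above their set mean. The 7 genes other than Calb1 lay all on 1 side of their set means in 28 of 60 libraries, of which 4 were among the 20 of week 3, 10 among those of week 8 and 14 among those of week 24. The map of deviations shows these libraries as columns of 1 colour, most of them at weeks 8 and 24.

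**Figure D4:**
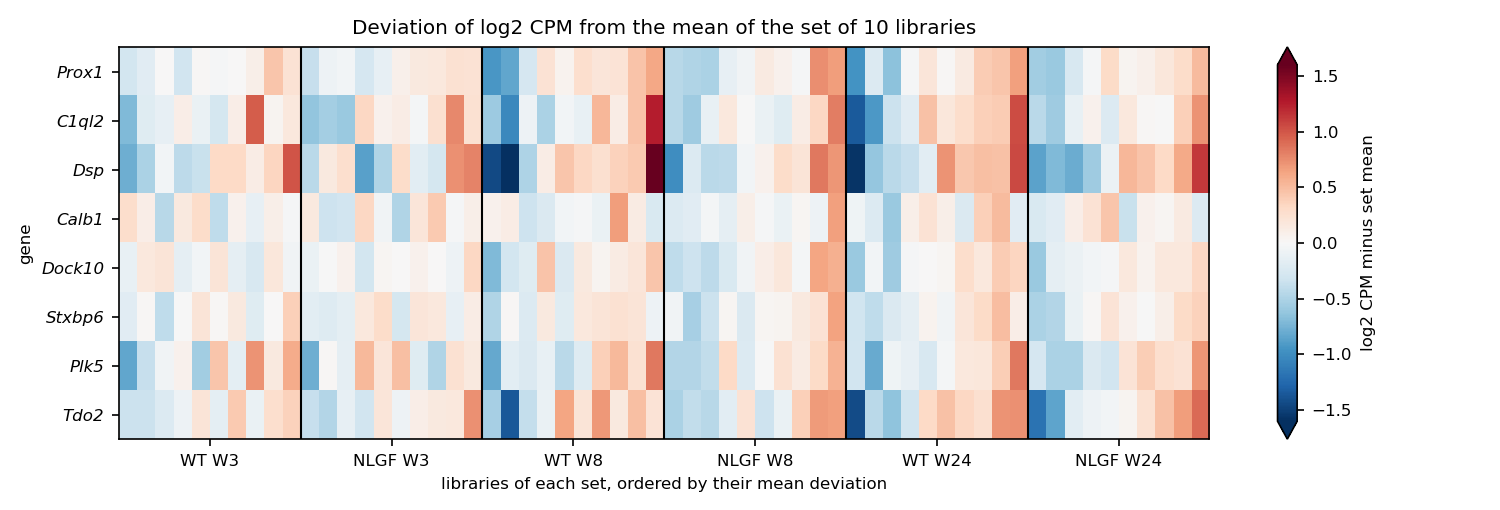
Deviation of log2 CPM from the mean of the set of 10 libraries (colour, limits at -1.6 and 1.6) for each gene (rows) in 60 libraries (columns), ordered within each set by the mean deviation. In 28 of 60 libraries the 7 genes other than Calb1 are all high or all low, with 4 of 20 at week 3, 10 of 20 at week 8 and 14 of 20 at week 24.

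**Figure D5:**
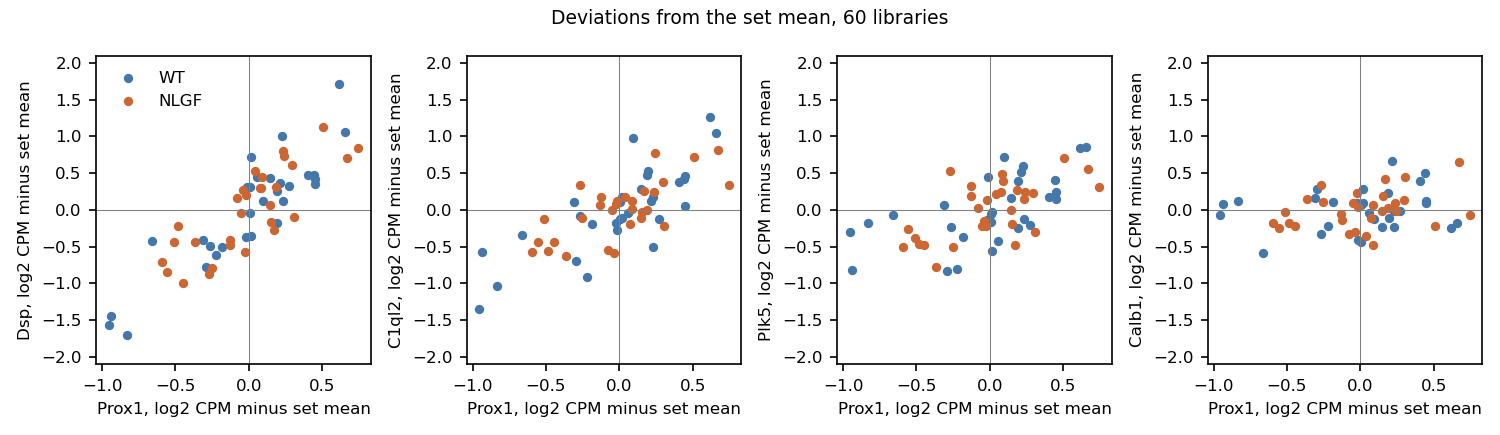
Deviation of Dsp, C1ql2, Plk5 and Calb1 (vertical axes, log2 CPM minus set mean) against that of Prox1 (horizontal axes), with 1 point per library, WT in blue and NLGF in orange. Dsp (r = 0.861), C1ql2 (0.756) and Plk5 (0.624) rise with Prox1, and Calb1 (0.233) spreads around 0.

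Genes of other cells were set against Prox1 in the same way, as 10 lists. The 14 further granule cell genes correlated with it at r = 0.880 and rho = 0.880 (permutation p = 1e-05, adjusted p = 5e-05). Interneuron genes ran against it, with r = -0.512 and rho = -0.564 (permutation p = 1e-05, adjusted p = 5e-05), negative in 6 of 6 sets. CA field pyramidal cell genes had r = 0.430 and rho = 0.352 (permutation p = 0.0006 and 0.00608, adjusted p = 0.002 and 0.0203). Immature granule cell genes had r = 0.366 and rho = 0.334 (permutation p = 0.0112 and 0.0132, adjusted p = 0.028 and 0.033), which without the 2 extreme libraries came to r = 0.273 with adjusted p = 0.148. The other 6 lists, among them mossy cell genes (r = 0.109), choroid plexus (0.266) and oligodendrocyte genes (0.159), did not pass the threshold. How the amount of dentate tissue in each library enters these values was not tested.

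As a description, genes were ranked by r between their deviations and the mean standardised deviation of the 8 members, over 60 libraries and among 14504 genes with at least 1 CPM on average. The 10 genes outside the 8 with the highest r were Dgkh (0.895), Vwa3b (0.891), Sema5a (0.885), Btbd3 (0.875), Cecr2 (0.854), Il1r1 (0.853), Plekha2 (0.851), Lyst (0.844), Rfx3 (0.842) and Mcm6 (0.825). Dgkh is a diacylglycerol kinase, Sema5a a semaphorin, Il1r1 the interleukin-1 receptor and Rfx3 a transcription factor of ciliated cells. Sema5a and Rfx3 were also among the 14 further granule cell genes. Calb1, although a member of the mean, ranked at place 950 of 14504 with r = 0.361, and Gabrd, a GABA receptor subunit of the same list of 14, at place 3885.

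Because 6 of the genes varied with Prox1, each was also read relative to Prox1 in the same library, as a log2 ratio of CPM. For Plk5 the mean ratio was -4.28 ± 0.43 (SD, n = 10) in WT at week 3, -3.19 ± 0.37 at week 8 and -3.09 ± 0.39 at week 24. In NLGF it was -4.35 ± 0.43, -3.45 ± 0.24 and -3.22 ± 0.29. Plk5 was therefore about 1 log2 unit higher relative to Prox1 at the later ages in both genotypes, with overlap between week 3 and week 24. The ratio of Stxbp6 went from -1.36 ± 0.27 to -0.56 ± 0.33 in WT between weeks 3 and 24, and from -1.42 ± 0.29 to -0.68 ± 0.10 in NLGF. In NLGF the 10 week 24 values of Stxbp6 (-0.82 to -0.54) were all above the 10 week 3 values (-1.80 to -0.98), 1 of 7 genes, where 135 of 14503 genes behaved so against Prox1 (0.931%). The CPM of Stxbp6 itself overlapped in NLGF, with 60.3 to 89.4 at week 3 and 66.1 to 121 at week 24. C1ql2 went from -1.65 to -1.08 in WT and from -1.74 to -0.97 in NLGF. These ratios also hold the change of Prox1, which stood at -0.45 in WT and -0.35 in NLGF at week 24 over week 3. The estimates of C1ql2 itself were 0.13 in WT and 0.37 in NLGF. No test was made on the ratios, and the NLGF week 3 values include the deeper libraries.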

How the data were processed

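Total RNA of hippocampus was sequenced after ribosomal RNA depletion, per the labels' protocols. The authors deposited raw counts per gene symbol, 1 column per library, with 35976 symbols, of which 4405 were at 0 in every library. The submitters' processing notes name mm10 and the tools FastQC, STAR, edgeR and DESeq2, with no version. The sources used here do not give the read counter, its annotation or whether it used strand. A second deposited table lists genes the authors called between genotypes, with log2 fold change, p-value and adjusted p-value, and the authors' mean of normalized counts as signal, per the file headers.

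All other values were made here from those counts with R 4.3.3 and Python 3.11.15. Genes were filtered by filterByExpr (minimum count 10), scaled by TMM and tested with edgeR 4.0.16 (quasi-likelihood, robust fit, 2-sided). P-values were adjusted by Benjamini-Hochberg across every gene tested, and an adjusted p under 0.05 was called. Genotypes were compared within each week with sex as a covariate (20 libraries). Ages were compared within each genotype with sex as a covariate (30 libraries), and differences of the genotype effect and the sexes in 1 model of 12 groups over 60 libraries. The SE is the size of the log2 fold change divided by the square root of F, and 95% intervals are the estimate ± 1.96 SE. Levels are CPM on TMM-adjusted library totals (17786578 to 73423252 counts before adjustment). Correlations used log2 CPM (prior count 2) with permutation within sets. The scripts were tested on simulated data. No 2 of the 60 libraries agreed within sampling noise (lowest chi-square per gene 6.35 over 1770 pairs).

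Gene coordinates are those of GENCODE in mm10, and promoter windows are from RefSeq (GRCm38.p6). The alternatives were RLE scaling, DESeq2 1.42.0, other filters, leaving out each library, a replicate block, leaving out the deeper libraries or the library with a conflicting sex label, each sex alone, 1 model for all 60 libraries and a CA field marker covariate. The members and gene lists were chosen with earlier results of these data known. Named are the 8 members, App, at most 4 called genes of smallest p from each other list per comparison, and the 10 genes most like the members. Glis3, named from the authors' deposited table, and genes named as examples of a list were chosen after their values were seen.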

Additional observations from a re-analysis of the deposited data

Results flagged for a closer look

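In 8 of the 48 sets of 10 libraries (8 genes in 6 sets), 1 library was far from the other 9, by the gap to its neighbour over the range of the set. Chance would give about 1 in 20 sets if values were independent and normally distributed. The values were CPM without a log, and the 48 sets share libraries and genes that varied together. The count of 8 is therefore not read against that rate. All 8 were the highest of their set. WT W8 female 1 held both C1ql2 at 135.8 CPM (next library 81.9) and Dsp at 233.4 CPM (next 97.2). In the WT week 3 set, C1ql2 was at 99.7 CPM in male 3 (next 57.3) and Dsp at 188.8 CPM in male 5 (next 119.7). Calb1 was at 121.2 CPM in WT W8 female 4 (next 83.5) and at 123.3 CPM in the library labelled NLGF W8 female 1 (next 83.7), the library with the conflicting age field. NLGF W3 female 3, which is not one of the deeper libraries, held Dock10 at 164.1 CPM (next 136.9) and Tdo2 at 6.72 CPM (next 4.63).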

How the results depend on the processing

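Of 4526 recomputed single-gene values, 4317 kept direction and side of the threshold, 32 lost a call, 11 gained one and 166 changed sign; the cause was not tested. The count of members called at week 3 between genotypes went from 0 to 1 (Prox1) with DESeq2 and with a filter of at least 1 CPM in 10 libraries (log2 fold change 0.31 in both), and ran from 0 to 1 over fits leaving out 1 library; Prox1 was called without NLGF W3 male 1, without NLGF W3 male 5 and without WT W3 male 2 (adjusted p = 0.0478, 0.0475 and 0.0375). Between weeks 3 and 8 the count in WT went from 1 to 0 with no filter, and from 0 to 2 over fits leaving out 1 library. In NLGF it went from 1 to 0 with no filter and without the deeper libraries, and from 0 to 1 with 1 library left out. Between weeks 3 and 24 it ran from 1 to 3 in WT with 1 library left out; in NLGF it was 1 with no filter, 0 without the deeper libraries and 2 to 3 with 1 library left out. Stxbp6 lost its call in 7 of 30 such fits in WT and in 1 of 30 in NLGF, Plk5 between weeks 3 and 8 in 5 of 30 in WT and in 11 of 30 in NLGF. The 6 correlations with Prox1 stayed called in both alternatives. The number of all genes called moved by over 1.5 times in these cases. At week 3 between genotypes it was 628, against 1486 with DESeq2, 351 with no filter, 165 with a replicate block, 0 without the deeper libraries, 190 in females, 6 in males, 1998 in 1 fit of all libraries and 102 to 1923 with 1 library left out. The count at week 8 was 0, against 1 with DESeq2, and that at week 24 was 145, against 224 with DESeq2, 44 in females and 37 in males. For week 8 minus week 3 it was 41, against 89, 24 and 0 with DESeq2, no filter and no deeper libraries, and 17 to 251 with 1 library left out. For week 24 minus week 3 it was 240, against 364, 141 and 14, and 146 to 713. In WT it was 1202 between weeks 3 and 8, against 2029 without WT W8 female 1, and 47 between weeks 8 and 24, against 111 with DESeq2, 29 with a replicate block and 28 to 81 with 1 library left out.  

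Outside the replicate block, replicate numbers were not used to pair the samples. Between same-numbered WT and NLGF libraries r ran from -0.167 to 0.426 with a median of 0.0584, and 13 of 30 were over 0.1. The highest was that of females 3 at week 24. Libraries of different numbers were not compared in this way, so whether the numbers pair samples was not tested. With a replicate block, the count between weeks 3 and 8 was 0 in WT and 0 in NLGF (Plk5, adjusted p = 0.0666 and 0.0599), and the difference of genotype effect between weeks 8 and 3 changed sign for Prox1 (0.0071), C1ql2 (0.034) and Dsp (0.12).

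Other sign changes were as follows. With a CA field covariate at week 8: Dsp -0.023 and Plk5 -0.019. With the 1 CPM filter, week 8 minus week 3: C1ql2 0.0084 and Dsp 0.0041. Females alone: Calb1 -0.070 at week 3 and Plk5 -0.032 at week 8. Males alone at week 3: Dsp -0.36, Dock10 -0.017 and Plk5 -0.0096; at week 8: Dsp -0.096, Calb1 -0.023, Stxbp6 -0.020 and Tdo2 -0.0071; at week 24: Calb1 0.077. Without the deeper libraries: Calb1 -0.041 at week 3 and 0.0090 for week 8 minus week 3; for week 24 minus week 3 Prox1 -0.086, C1ql2 -0.18, Dsp -0.22, Plk5 -0.20 and Tdo2 -0.082; in NLGF between weeks 3 and 8 C1ql2 -0.11 and Tdo2 -0.22.

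Leaving out 1 library changed the sign of estimates over these ranges. For NLGF over WT at week 3, Dsp -0.059 to 0.18, Tdo2 -0.024 to 0.14. For NLGF over WT at week 8, Dsp -0.068 to 0.33, Calb1 -0.055 to 0.11, Plk5 -0.046 to 0.11. For NLGF over WT at week 24, Calb1 -0.10 to 0.024. For genotype effect at week 8 minus week 3, Prox1 -0.12 to 0.053, C1ql2 -0.13 to 0.22, Dsp -0.13 to 0.30. For genotype effect at week 24 minus week 8, Calb1 -0.15 to 0.032, Dock10 -0.022 to 0.11. For genotype effect at week 24 minus week 3, Stxbp6 -0.00049 to 0.11, Plk5 -0.075 to 0.16, Tdo2 -0.0027 to 0.28. For male over female, C1ql2 -0.10 to 0.0094, Plk5 -0.0087 to 0.068. For WT week 24 over week 8, C1ql2 -0.22 to 0.12, Dsp -0.40 to 0.076, Calb1 -0.028 to 0.10, Dock10 -0.084 to 0.038, Stxbp6 -0.014 to 0.087, Plk5 -0.17 to 0.087, Tdo2 -0.054 to 0.18. For NLGF week 8 over week 3, Calb1 -0.046 to 0.089, Tdo2 -0.065 to 0.10. For NLGF week 24 over week 8, Prox1 -0.10 to 0.065, Dsp -0.10 to 0.19, Calb1 -0.093 to 0.060, Dock10 -0.034 to 0.092. For NLGF week 24 over week 3, Dsp -0.29 to 0.040, Calb1 -0.054 to 0.061.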
